A study of Mus musculus with 4 samples.

Results

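PT-S3-2 is 1 of 23 clusters of mouse kidney nuclei and 1 of 3 clusters that carry the name of the S3 segment, the straight last stretch of the proximal tubule. It was taken as the authors' cluster number 3, which is 4 of the 92 columns of the deposited table, 1 column for each of 4 mice. Single-nucleus RNA sequencing had been done on kidney cortex of male mice of mixed strain, and each column holds the mean expression of 19609 genes over the nuclei of 1 cluster in 1 mouse. Of the 4 mice, 1 was a control without injury, 1 a control given aristolochic acid I (AAI), 1 an hKLF6OE mouse without injury and 1 an hKLF6OE mouse given AAI. Controls carried TRE-hKLF6, the human KLF6 transgene behind a tetracycline response element, without a transactivator. hKLF6OE mice carried CAG-rtTA,TRE-hKLF6, in which the ubiquitous CAG promoter drives the transactivator, so that human KLF6 can be switched on by doxycycline in every cell type and not in the proximal tubule alone. All 4 mice ate doxycycline diet (200 mg/kg), so the drug is shared by controls and hKLF6OE mice. AAI was given as 1 intraperitoneal injection of 2 mg/kg and the kidney was taken 24 hours later. The table holds no row for the human transgene, so its level could not be checked in PT-S3-2.

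The S3 segment reabsorbs what the earlier S1 and S2 segments leave behind, and it carries many organic anion transporters and peroxisomes. AAI, a plant nitrophenanthrene carboxylic acid, enters proximal tubule cells through organic anion transporters, is reduced inside the cell and then binds to purines in DNA. Bulky DNA damage blocks transcribing RNA polymerase and stabilises p53, a transcription factor that switches on genes of cell cycle arrest, DNA repair and cell death. KLF6 is a zinc finger transcription factor of the early response to injury.

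Values are expression per 10000, since every column sums to 10000, and the 4 values of a gene are given in the order control, control with AAI, hKLF6OE, hKLF6OE with AAI. They are not divided by gene length, so levels are compared between mice and clusters and not between genes. A gene was tested in a comparison when its larger value was at least 0.5, and it was called higher or lower when log2(value + 1) differed by at least 0.2. For comparisons with other clusters the call had to hold with the same sign in all 4 mice. With 1 mouse per condition there is no spread between mice, no test was made, and every difference describes these 4 mice. The numbers of nuclei and of reads behind a column are unknown, so no counting interval can be given. A mean over nuclei also cannot tell a change inside nuclei from a change in which nuclei were placed in the cluster.

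Both marker genes were high in PT-S3-2. Cyp7b1 (ENSMUSG00000039519, 3:18071950-18243338 on the minus strand of GRCm38), the oxysterol 7-alpha-hydroxylase, stood at 32.0, 47.4, 37.1 and 48.3, against a mean over the other 22 clusters of 1.55, 2.11, 1.37 and 3.08. It was higher in PT-S3-2 than in any other cluster in all 4 mice, and the next cluster reached 4.93, 11.5, 6.63 and 20.1. That next cluster was the collecting duct cluster CD_PC in the uninjured control and the distal cluster DCT_CNT in the uninjured hKLF6OE mouse. In both mice given AAI it was PT-S3-3. Slc7a13 (ENSMUSG00000041052, 4:19818725-19842218 on the plus strand), an amino acid transporter of the S3 brush border, stood at 25.8, 28.3, 21.7 and 22.8, against 5.59, 4.10, 4.02 and 3.33 in the other clusters. It was also highest in PT-S3-2 in all 4 mice, but the next cluster, PT-S3-3, was close, at 20.7, 22.2, 13.9 and 18.6. Cyp7b1 therefore separates PT-S3-2 from its neighbours further than Slc7a13 does. Slc22a19, an organic anion transporter of S3, was highest in PT-S3-2 in all 4 mice (9.04, 7.12, 6.09 and 2.97). Slc3a1 was also highest there in all 4 mice (4.49, 5.86, 5.47 and 6.35). Slc22a30 was highest there only in the mice given AAI (10.5, 10.1, 9.68 and 9.04). Slc5a1, another S3 gene, was low in PT-S3-2, at 0.256, 0.290, 0.287 and 0.296 (ranks 9, 7, 4 and 7). The early segment genes Slc5a12, a lactate transporter (2.92, 3.103, 2.67 and 2.75, ranks 16 to 17 of 23 clusters), and Slc5a2, the glucose transporter SGLT2 (0.667, 0.395, 0.695 and 0.355), were low. Cyp7b1 and Slc7a13, the markers of the label, were thus high in the cluster, while Slc5a1 was not.

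Marker genes of other cell types were low in PT-S3-2, apart from some of the loop of Henle and the distal tubule. Of 8 marker genes each, 7 podocyte, 8 endothelial, 4 loop of Henle, 3 distal and connecting tubule, 7 collecting duct, 8 intercalated cell, 7 macrophage and 8 mesangial and fibroblast genes were below 0.5 in all 4 mice. Sums over 8 marker genes each ranged over the 4 mice from 0.735 to 0.803 for podocytes, 0.548 to 0.625 for endothelium, 8.45 to 9.52 for the loop of Henle, 11.24 to 13.9 for distal and connecting tubule, 1.10 to 1.83 for collecting duct, 0.247 to 0.364 for intercalated cells, 0.834 to 1.24 for macrophages and 0.0484 to 0.121 for mesangial cells and fibroblasts. The defining podocyte gene Nphs1 was at 0.0156, 0.0256, 0.0156 and 0.0116, and the macrophage gene Ptprc, which encodes CD45, was at 0.0258, 0, 0.0639 and 0.00589. The loop of Henle and distal sums included Cldn10 (2.94, 2.74, 2.83 and 2.91) and Trpm7 (5.34, 4.72, 3.95 and 5.01). Slc12a3, the thiazide-sensitive cotransporter, was at 0.762, 0.765, 0.899 and 1.03. The profile of PT-S3-2 was closest to PT-S3-3 in all 4 mice, with a Pearson correlation across genes on the log2(value + 1) scale of 0.970, 0.970, 0.967 and 0.977. PT-S3-1 was the next closest, at 0.956, 0.935, 0.953 and 0.926. EC-1, named for endothelium, stood at 0.933, 0.904, 0.922 and 0.901, while EC-2 stood at 0.745, 0.719, 0.743 and 0.721. DCT_CNT, named for distal and connecting tubule, stood at 0.921, 0.905, 0.909 and 0.897. Both EC-1 and DCT_CNT are among the other 22 clusters with which PT-S3-2 is compared.

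The genes furthest above the other 22 clusters in PT-S3-2 included Cyp7b1, Gramd1b, Ghr, Fgf1 and amino acid transporters. Of 4063 genes tested, 659 were higher in all 4 mice (16.2%) and 956 lower (23.5%). Clusters were made from these same expression values, so these differences describe the cluster and test nothing. Of the 15 genes with the largest differences, 14 were highest of all 23 clusters in all 4 mice, and Tet2, a methylcytosine dioxygenase, in 3. Cyp7b1 led, with differences of 3.60 to 4.01 on the log2 scale. Gramd1b, which moves cholesterol from the plasma membrane to the endoplasmic reticulum, stood at 42.2, 110.2, 55.7 and 125, against 4.0, 6.46, 4.04 and 9.38 in the other clusters. Ghr, the growth hormone receptor, stood at 183, 239.7, 139 and 199, against 25.8, 34.4, 23.01 and 27.2. Both were the highest of the 23 clusters in every mouse. Fgf1, a fibroblast growth factor, stood at 26.4, 22.3, 40.5 and 33.8, against 2.44, 2.63, 2.65 and 3.09. Mep1b, the beta subunit of the brush border protease meprin, stood at 4.72, 7.88, 5.38 and 6.55, against 0.322, 0.428, 0.460 and 0.415. Esr1, the estrogen receptor alpha, stood at 6.30, 4.99, 6.05 and 4.25, against 0.841, 0.436, 0.931 and 0.432.

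Among the same 15 genes were amino acid transporters and membrane proteins. Slc6a18, a neutral amino acid transporter of the brush border, stood at 10.4, 9.89, 8.09 and 11.5 and Slc6a15, another neutral amino acid transporter, at 7.02, 5.91, 6.31 and 6.91, with differences from the other clusters of 2.12 to 2.19 and 1.98 to 2.23. Atp11a, a phospholipid flippase, stood at 18.7, 20.5, 15.6 and 24.7. Rnf24, a RING finger protein, stood at 20.6, 46.2, 26.4 and 29.8 and differed from the other clusters by 3.18 to 4.01 on the log2 scale. Gpm6a, Ctnna2, which encodes an alpha catenin, and Cmah, the hydroxylase that makes N-glycolylneuraminic acid, completed the 15, with smallest differences of 1.91, 1.88 and 1.83.

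**Figure D1:**
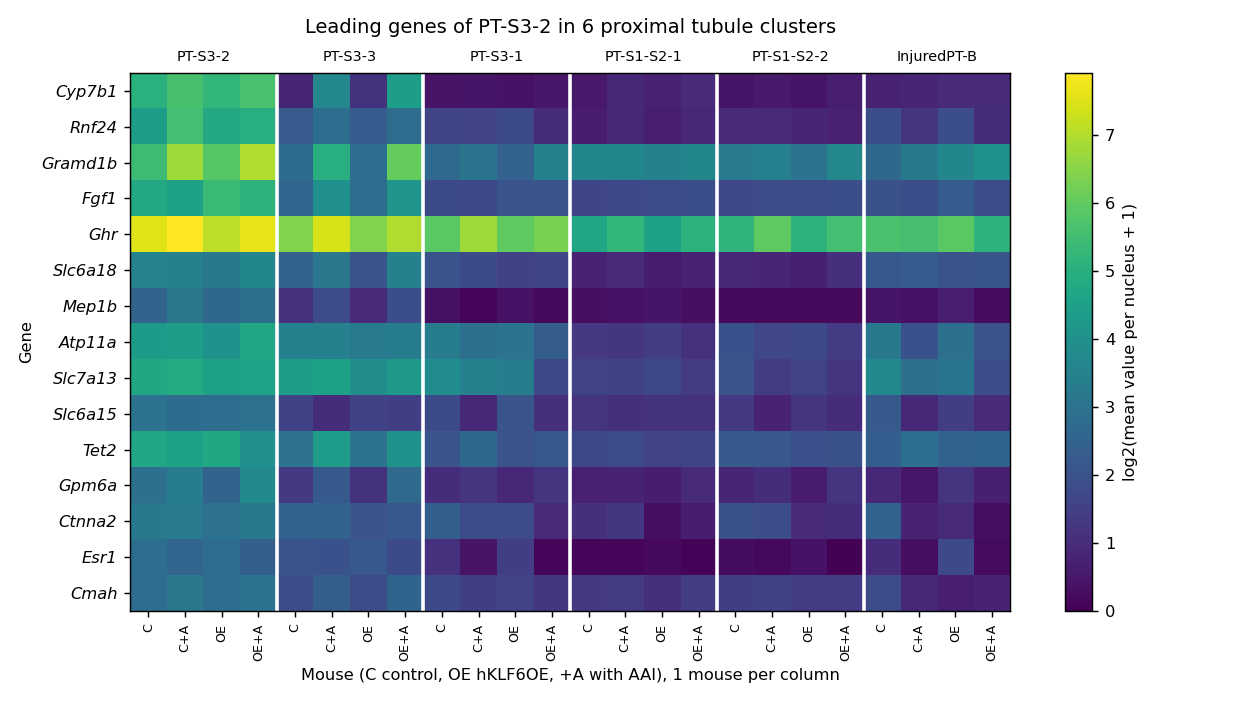
Expression per 10000 of genes that lead PT-S3-2, as colour on a log2(value + 1) scale, 1 row per gene and 1 column per mouse in 6 proximal tubule clusters. Cyp7b1 and Gramd1b were high in PT-S3-2 in all 4 mice, and in PT-S3-3 they were higher in both mice given AAI than in the uninjured mice of the same genotype.

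By function, S3 and peroxisome genes stood above the other clusters. List counts are to be read beside the 16.2% higher and 23.5% lower over all genes tested, and a low gene can be tested through the other clusters alone. Of 24 S3 marker genes in the table, 20 were tested, 16 were higher and 2 lower. Their median was 1.28 to 1.69 over the 4 mice, beside -0.10 to -0.03 over all genes tested. Cyp7b1, Slc7a13, Slc6a18 and Atp11a are on this list too, so it is no independent description. Of 22 tested genes of organic anion and cation transport, 14 were higher and 4 lower, with medians of 0.52 to 0.83. Of 36 tested peroxisome genes, which shorten very long chain fatty acids and break down hydrogen peroxide, 20 were higher and 3 lower, with medians of 0.38 to 0.51. S1-S2 markers counted 6 higher and 10 lower of 19 tested. Of 13 genes encoded in mitochondrial DNA, 11 were tested, none was higher and 9 were lower than in the other clusters, with medians of -0.78 to -0.47.

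Against the mean of the 2 other S3 clusters, 219 of 3497 genes were higher (6.26%) and 254 lower (7.26%). Of the 15 leading genes, 6 were also among the 10 highest here. Rnf24 stood at 20.6, 46.2, 26.4 and 29.8 in PT-S3-2, against 2.96, 4.18, 3.17 and 3.54 for the mean of PT-S3-1 and PT-S3-3, and Cyp7b1 against 0.534, 5.95, 0.764 and 10.3. The log2 difference of Cyp7b1 from the other S3 clusters was 4.43 in both uninjured mice, and 2.80 and 2.13 in the mice given AAI. Napsa, an aspartic protease of proximal tubule lysosomes, stood at 10.7, 15.6, 16.2 and 11.6, against 3.49, 4.59, 5.30 and 3.67. Adgrb3, an adhesion G protein-coupled receptor, stood at 2.08, 4.12, 1.78 and 4.20, against 0.0913, 0.405, 0.0451 and 0.778. Bcat1, the cytosolic branched-chain aminotransferase, stood at 1.63, 3.43, 4.80 and 2.90, against 0.0290, 0.130, 0.0466 and 0.261, and Myo5a, a myosin motor, at 3.44, 3.54, 2.98 and 3.41, against 0.626, 0.736, 0.646 and 0.701. All of these genes were higher in PT-S3-2 in each of the 4 mice.

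Genes lower in PT-S3-2 than in the other S3 clusters included the transporters Slc34a1, Slc13a1 and Slc13a3 and the endocytic adaptor Dab2. Slc34a1, the main sodium phosphate cotransporter of the brush border, stood at 16.6, 6.32, 12.3 and 5.35, against 61.2, 20.8, 45.2 and 18.9 in the other S3 clusters. Dab2, an endocytic adaptor that binds megalin, stood at 12.5, 8.84, 9.61 and 7.88, against 40.1, 38.2, 36.5 and 28.7. Bnc2, a zinc finger protein, stood at 1.77, 1.28, 1.03 and 0.939, against 11.6, 9.22, 8.42 and 7.41, and it ranked first among lower genes by its smallest difference over the mice (-2.22 to -2.12 on the log2 scale). The sulfate transporter Slc13a1 and the dicarboxylate transporter Slc13a3 differed by -2.24 to -1.21 and -1.61 to -1.29. Plcb1, a phospholipase C, Pik3c2g, a phosphoinositide kinase, Cyp2j13, Rhobtb1 and Timp3, an inhibitor of metalloproteases, were the others of the 10 lowest. By list, beside 6.26% higher and 7.26% lower of all genes tested, S3 markers were 11 higher and 1 lower of 21 tested, S1-S2 markers 1 higher and 8 lower of 19, and peroxisome genes 6 higher and 3 lower of 36. Organic anion and cation transport, mostly higher against all other clusters, turned round here, with 2 higher and 7 lower of 21. Leaving out PT-S3-1 changed the comparison, since against PT-S3-3 alone 136 genes were higher and 119 lower.

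The summed level of a list of sterol synthesis and uptake genes was higher in PT-S3-2 than in the other S3 clusters in all 4 mice. Against the mean of those clusters 6 members were tested, of which 3 were higher and none lower, beside 6.26% and 7.26% of all genes tested. The list of 25 genes in the table was chosen after their values were seen, so its counts are a description of these columns only. Summed over all 25, it stood at 35.9, 29.1, 30.7 and 27.0 in PT-S3-2, at 20.1, 20.1, 17.4 and 13.6 in PT-S3-1 and at 21.7, 21.4, 18.2 and 19.9 in PT-S3-3. Cyp51, the lanosterol demethylase, stood at 2.04, 1.60, 1.64 and 0.884 in PT-S3-2, at 0.293, 0.152, 0.275 and 0.133 in PT-S3-1 and at 0.787, 0.523, 0.668 and 0.216 in PT-S3-3. In every mouse it was highest in PT-S3-2 of the 3 clusters. Aacs, which activates acetoacetate for lipid synthesis, stood at 11.42, 9.43, 10.4 and 6.85 in PT-S3-2, at 8.25, 7.08, 7.23 and 3.01 in PT-S3-1 and at 7.96, 6.49, 7.54 and 5.33 in PT-S3-3. Acss2, which makes acetyl-CoA from acetate, stood at 8.75, 8.62, 8.33 and 9.66 in PT-S3-2, at 4.24, 3.93, 3.05 and 3.002 in PT-S3-1 and at 5.47, 5.92, 3.55 and 6.46 in PT-S3-3. Both were higher in PT-S3-2 than in the other S3 clusters in every mouse. Together Aacs and Acss2 made up most of the list's sum in PT-S3-2 in every mouse, so the sum mainly follows these genes. Hmgcs1, an early synthase of the mevalonate pathway, stood at 4.54, 4.32, 3.01 and 4.28 in PT-S3-2 and overlapped its level in the other S3 clusters.

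With AAI, Srebf2, Stard4, Cyp51 and Aacs were lower in PT-S3-2 in both genotypes. Over all 25 members with no filter on low values, none was higher and 11 were lower by at least 0.2 in control, 1 was higher and 7 lower in hKLF6OE, and 6 were lower in both. For all 19609 genes with no filter, most of which are low, 3.71% were lower in control, 5.00% in hKLF6OE and 1.63% in both. Srebf2, the transcription factor of sterol genes, was 1.05 without and 0.519 with AAI in control, and 0.923 without and 0.461 with AAI in hKLF6OE. Stard4, a cholesterol carrier, was 0.874 without and 0.440 with AAI in control, and 0.915 without and 0.395 with AAI in hKLF6OE, and Cyp51 was 2.04 without and 1.60 with AAI in control, and 1.64 without and 0.884 with AAI in hKLF6OE. Each was lower with AAI in both genotypes. Msmo1, a sterol methyl oxidase, was 0.674 without and 0.237 with AAI in control, and 0.394 without and 0.211 with AAI in hKLF6OE. Hmgcs1 was not lower by the threshold in control and was higher with AAI in hKLF6OE. Cyp51 and Aacs also lay lower with AAI in PT-S3-1 and PT-S3-3 in both genotypes. Over all 25 members with no filter, none was lower by the threshold in both genotypes in PT-S3-1, and 2 were in PT-S3-3.

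**Figure D2:**
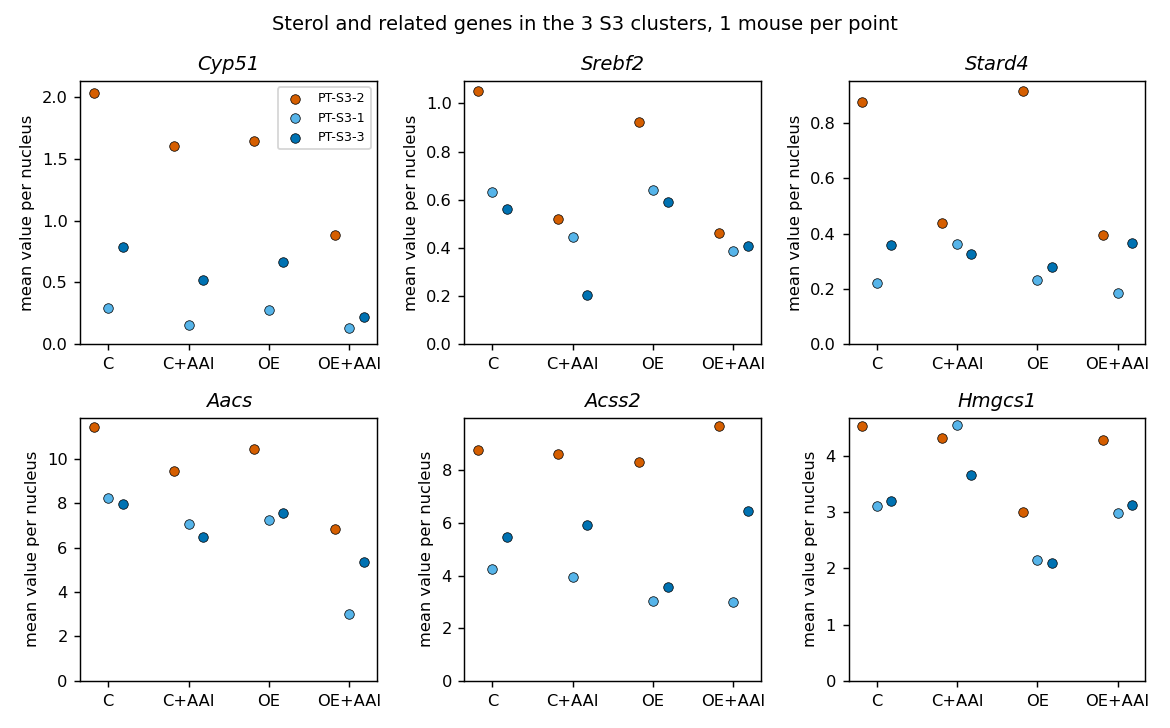
Expression per 10000 of 6 genes of the sterol list in the 3 S3 clusters, 1 point per mouse, with axes starting at 0. Cyp51, Aacs and Acss2 were higher in PT-S3-2 than in PT-S3-1 and PT-S3-3 in all 4 mice, and Srebf2 and Stard4 were lower in PT-S3-2 with AAI in both genotypes.

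The sterol regulatory element, written TCACNCCAC, was searched on both strands in the RefSeq promoters of GRCm38.p6 (250 bases before to 50 after each start). It was present in 1 of the 20 members that have a promoter in the table, Hmgcs1, and in 1.24% of all 32851 promoters. The promoter is shown as the one member in which the letters were found, with the match in capitals, and it lies at chr13:119690101-119690400 on the plus strand with the match starting at position -137 from the start site.
Hmgcs1: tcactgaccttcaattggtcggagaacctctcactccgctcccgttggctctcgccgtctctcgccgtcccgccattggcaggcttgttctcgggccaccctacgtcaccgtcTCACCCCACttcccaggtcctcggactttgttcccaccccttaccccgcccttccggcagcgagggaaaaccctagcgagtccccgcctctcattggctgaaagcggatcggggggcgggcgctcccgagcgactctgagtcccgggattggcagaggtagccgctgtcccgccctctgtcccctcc

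With AAI, Cyp7b1 and Slc7a13 were still highest in PT-S3-2, p53 target genes and single genes such as Serpine2, Nrg1 and Exoc4 were higher, and Ndrg1, Lpl, Slc34a1 and genes of mitochondrial DNA were lower. In control, 423 of 4003 genes were higher (10.6%) and 629 lower (15.7%). In hKLF6OE, 789 of 4025 were higher (19.6%) and 729 lower (18.1%). The balance in hKLF6OE turned with the scaling, at 685 higher and 802 lower when centred on the median and 752 and 1017 without the 20 most abundant genes. Of 3760 genes tested in both genotypes, 232 were higher in both (6.17%) and 270 lower in both (7.18%). The genes higher in both were 57.7% of those higher in control and 30.4% of those higher in hKLF6OE, and for lower genes the shares were 47.1% and 43.4%. A further 67 genes were called in opposite directions, 19 of them higher in control and lower in hKLF6OE. The Pearson correlation across genes between the mouse with and the mouse without AAI was 0.981 in control and 0.969 in hKLF6OE.

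Genes were ranked by the smaller of their 2 differences, and Serpine2, an inhibitor of serine proteases such as thrombin, led at 0.0704 without and 1.48 with AAI in control, and 0.329 without and 2.32 with AAI in hKLF6OE. Gramd1b, already the third leading gene of the cluster, was 42.2 without and 110.2 with AAI in control, and 55.7 without and 125 with AAI in hKLF6OE (log2 differences 1.36 in control and 1.15 in hKLF6OE). Exoc4, a subunit of the exocyst that tethers vesicles to the plasma membrane, was 5.83 without and 12.9 with AAI in control, and 6.08 without and 19.9 with AAI in hKLF6OE. In all 3 the mouse with AAI lay above the mouse without in both genotypes. Nrg1, a ligand of the ErbB receptors, was 5.88 without and 11.99 with AAI in control, and 5.91 without and 19.1 with AAI in hKLF6OE. Kng2, a kininogen, was 1.40 without and 4.09 with AAI in control, and 1.59 without and 3.73 with AAI in hKLF6OE, and Catspere2 was 2.04 without and 4.79 with AAI in control, and 1.73 without and 4.29 with AAI in hKLF6OE. Them7 (0.83 in control and 1.29 in hKLF6OE) and the transcripts Gm26917, Gm47760 and Gm37245, named only by gene model number, completed the 10. All 10 also lay higher with AAI in PT-S3-1 and PT-S3-3 in both genotypes, so they are not particular to PT-S3-2. In PT-S3-3 the log2 differences in control and hKLF6OE were 2.05 and 1.77 for Serpine2, but 0.21 and 0.61 for Them7.

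Among lower genes, Gm42397 was 16.3 without and 3.15 with AAI in control, and 15.6 without and 1.69 with AAI in hKLF6OE, with log2 differences of -2.06 in control and -2.62 in hKLF6OE. Ndrg1, a stress-regulated protein, was 17.3 without and 4.32 with AAI in control, and 17.1 without and 3.38 with AAI in hKLF6OE, and Lpl, lipoprotein lipase, was 4.51 without and 0.909 with AAI in control, and 4.56 without and 0.642 with AAI in hKLF6OE. In both genotypes the 2 mice with AAI lay well below the 2 without. Slc34a1, the phosphate cotransporter, was 16.6 without and 6.32 with AAI in control, and 12.3 without and 5.35 with AAI in hKLF6OE. Miox, the first enzyme of inositol breakdown and a proximal tubule enzyme, was 4.79 without and 2.002 with AAI in control, and 4.43 without and 1.18 with AAI in hKLF6OE. Fam83g was 1.29 without and 0.0859 with AAI in control, and 1.04 without and 0.0878 with AAI in hKLF6OE. Gm39033, Gm48362 and the mitochondrially encoded mt-Nd4 and mt-Atp6 were the others of the 10 lowest. All 10 also lay lower with AAI in PT-S3-1 and PT-S3-3 in both genotypes. In PT-S3-1 the log2 differences in control and hKLF6OE were -2.89 and -3.49 for Gm42397, but -0.05 and -0.02 for Gm48362.

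**Figure D3:**
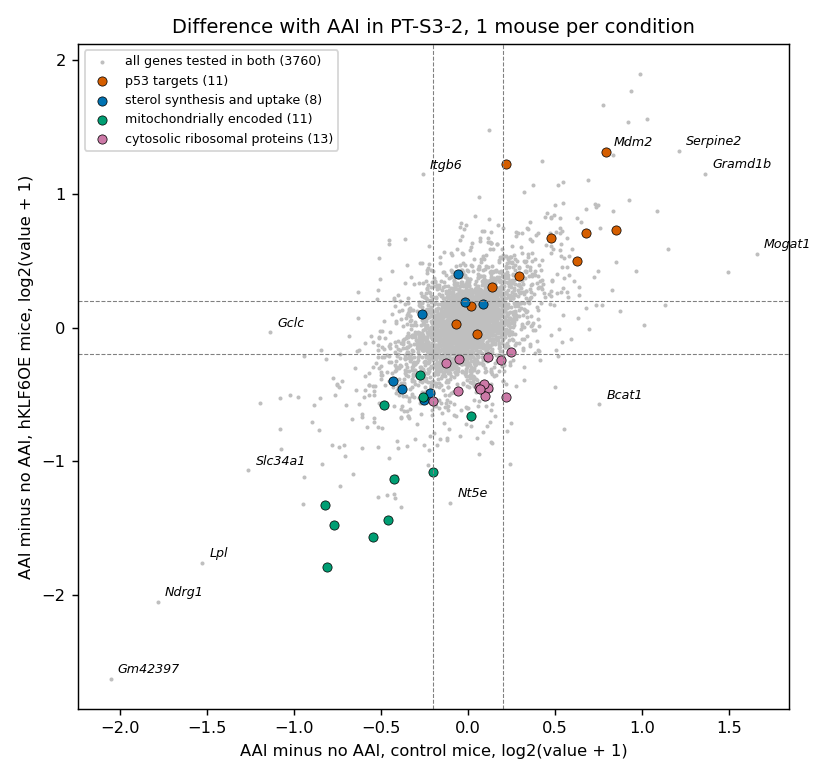
Log2 difference with AAI against without AAI in PT-S3-2, control on the horizontal and hKLF6OE on the vertical axis, 1 point per gene tested in both, with named genes labelled. Colours mark the p53, sterol, mitochondrial and ribosomal lists and broken lines the threshold of 0.2. Gramd1b and Serpine2 lie at the upper right and Gm42397, Ndrg1 and Lpl at the lower left, while Gclc and Bcat1 lie off the diagonal.

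Some known targets of p53 were higher with AAI in both genotypes, and with AAI their summed level was lower in PT-S3-2 than in the other S3 clusters. The list has 46 members in the table. Over all 46 with no filter on low values, 14 were higher and none lower in control, 16 were higher and none lower in hKLF6OE, and 12 were higher in both. Of all 19609 genes with no filter, 2.44% were higher in control, 4.42% in hKLF6OE and 1.32% in both. Most members are low, so a filter on low values keeps mainly those that are high with AAI, and counts after it are not used here. Their summed level was 9.89 without and 18.2 with AAI in control, and 9.36 without and 21.5 with AAI in hKLF6OE. In PT-S3-1 the sums were 9.80, 35.9, 9.53 and 35.3, and in PT-S3-3 9.24, 41.5, 9.72 and 41.0. The 2 uninjured and the 2 AAI-treated mice did not overlap in any of the 3 clusters.

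Mdm2, the ubiquitin ligase that limits p53, was 1.18 without and 2.79 with AAI in control, and 0.848 without and 3.60 with AAI in hKLF6OE in PT-S3-2. In PT-S3-1 it stood at 0.911, 7.89, 0.871 and 6.65, and in PT-S3-3 at 1.01, 7.69, 0.934 and 8.16. Its level with AAI was thus lowest in PT-S3-2 of the 3 clusters in both genotypes. Ccng1, cyclin G1, was 0.249 without and 0.996 with AAI in control, and 0.274 without and 1.08 with AAI in hKLF6OE, and Trp53inp1, a p53 cofactor of stress and autophagy, was 0.369 without and 1.47 with AAI in control, and 0.307 without and 1.16 with AAI in hKLF6OE. Gdf15, a secreted stress cytokine, was 0.0958 without and 0.688 with AAI in control, and 0.0894 without and 0.539 with AAI in hKLF6OE. Polk, a polymerase that copies past bulky lesions, was 0.5002 without and 1.08 with AAI in control, and 0.461 without and 1.32 with AAI in hKLF6OE. Each was higher with AAI in both genotypes. Pvt1, a non-coding RNA beside Myc, was 1.55 without and 1.97 with AAI in control, and 0.840 without and 3.30 with AAI in hKLF6OE. Cdkn1a, which encodes the cell cycle inhibitor p21, was listed at 0 in the control mouse without AAI, so no fold is given for control, and it stood at 0.282 with AAI in control, and at 0.00628 without and 0.235 with AAI in hKLF6OE. In InjuredPT-B, one of the authors' injured proximal tubule clusters, Cdkn1a stood at 1.003 and 1.20 in the mice given AAI.

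**Figure D4:**
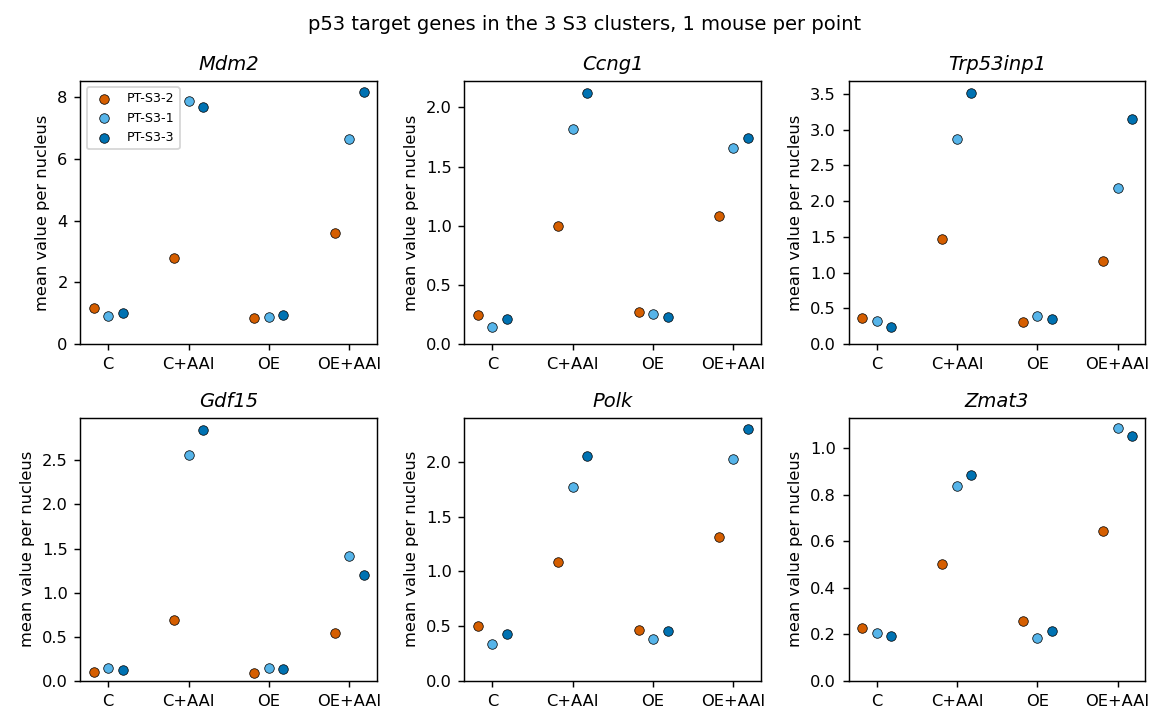
Expression per 10000 of 6 p53 target genes in the 3 S3 clusters, 1 point per mouse, with axes starting at 0. Mdm2, Ccng1 and Trp53inp1 were higher with AAI in PT-S3-2 in both genotypes, and Mdm2 was higher still in PT-S3-1 and PT-S3-3.

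The p53 response element, searched by name as 2 decamers with a short spacer on both strands, was found in 1 of the 36 members with a promoter in the RefSeq table, Cdkn1a, and in 0.0731% of all promoters. It is shown because Cdkn1a is the textbook target of p53. The match is one of letters only and was not compared with a known binding site, so the capitals may not mark the bases that p53 binds. Of 2 promoters of the gene in the table, the match is in the one at chr17:29090729-29091028 on the plus strand of GRCm38.p6, starts at position -73 from the start site and is given in capitals.
Cdkn1a: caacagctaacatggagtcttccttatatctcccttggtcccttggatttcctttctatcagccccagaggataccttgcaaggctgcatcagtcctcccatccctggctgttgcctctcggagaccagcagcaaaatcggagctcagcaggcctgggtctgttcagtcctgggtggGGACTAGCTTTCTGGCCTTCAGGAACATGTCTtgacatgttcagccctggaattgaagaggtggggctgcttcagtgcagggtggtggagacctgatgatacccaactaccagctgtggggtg

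Of 38 genes of nucleotide excision repair and lesion bypass, with no filter, 3 were higher in control and 5 in hKLF6OE. None was lower. Of all genes with no filter, 2.44% were higher and 3.71% lower in control, and 4.42% and 5.00% in hKLF6OE. These shares are held down by low genes, since 4047 of 19609 reached 0.5 in an uninjured mouse, beside 11 of the 38. With the filter, 12 of the 38 were tested in each genotype. Among all genes tested 10.6% were higher and 15.7% lower in control, and 19.6% and 18.1% in hKLF6OE, and the heat shock counts here are to be read beside them. Rev1, the scaffold of lesion bypass, was 1.40 without and 2.34 with AAI in control, and 1.30 without and 3.06 with AAI in hKLF6OE, and Atr, the kinase that senses stalled replication, was 0.967 without and 1.55 with AAI in control, and 1.03 without and 1.42 with AAI in hKLF6OE. Immediate early genes were few above the minimum. Egr1 was 0.0915 without and 0.641 with AAI in control, and 0.0763 without and 0.473 with AAI in hKLF6OE, and Zfp36, which destabilises cytokine messages, was 0.270 without and 0.532 with AAI in control, and 0.174 without and 0.677 with AAI in hKLF6OE. Of 10 tested heat shock genes 1 was higher and 2 lower in control, and of 11 in hKLF6OE none was higher and 5 lower, with Hspa8, the constitutive HSP70, at 2.79 without and 1.76 with AAI in control, and 4.06 without and 1.57 with AAI in hKLF6OE.

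Defining markers of injured tubule were near 0 in PT-S3-2 in all 4 mice. Havcr1, which encodes KIM-1, stood at 0.0451, 0.0612, 0.0273 and 0.0586, and Krt20, Lcn2, Vcam1 and Sox9 did not exceed 0.0106 in any mouse. Of all 32 genes of the injury list, with no filter, 4 were higher and 2 lower in control and 5 higher and 1 lower in hKLF6OE, beside 2.44% and 3.71% of all genes in control and 4.42% and 5.00% in hKLF6OE. Most genes of both are low, since 5 of the 32 and 4047 of all 19609 reached 0.5 in an uninjured mouse. Nrg1 and Gdf15 were among the higher members. Mouse Klf6 itself stood at 0.176, 0.260, 0.0725 and 0.195, under the minimum of 0.5 in all 4 mice. Polr2a, the largest subunit of RNA polymerase II, stood at 1.60, 1.92, 1.44 and 1.41 and Pcf11, a factor of transcript 3' end formation, at 1.05, 1.10, 0.891 and 0.898. The counts that follow stand beside 10.6% higher and 15.7% lower of all genes tested in control and 19.6% and 18.1% in hKLF6OE. Of 12 tested genes of RNA polymerase II and 3' end processing, 1 was higher and 1 lower in each genotype. Of the tested Hnrnp and Srsf genes, which encode RNA binding and splicing proteins, none was higher and 5 lower of 23 in control, and 1 was higher and none lower of 24 in hKLF6OE.

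Genes of S3 identity were mixed with AAI. Of 22 tested S3 markers, 4 were higher and 7 lower in control and 4 higher and 11 lower in hKLF6OE, with medians of -0.05 and -0.17, beside -0.02 and 0.03 for all genes tested. The shares over all genes tested were 10.6% higher and 15.7% lower in control and 19.6% and 18.1% in hKLF6OE. Cyp7b1 was the member with the largest difference upwards in control, at 0.55 in control and 0.37 in hKLF6OE on the log2 scale, and Slc7a13 stood at 0.13 and 0.07. Slc5a10, a fructose and mannose transporter, had the largest difference downwards in control, at 2.32 without and 0.938 with AAI in control, and 1.49 without and 0.918 with AAI in hKLF6OE. Kap, the androgen-regulated protein of the mouse proximal tubule, was 52.9 without and 39.1 with AAI in control, and 80.7 without and 33.5 with AAI in hKLF6OE. Of 11 tested androgen-regulated genes 3 were higher and 5 lower in control and 3 higher and 7 lower in hKLF6OE. Among transcription factors of tubule identity, 7 were higher and 5 lower of 25 in control and 8 higher and 4 lower of 24 in hKLF6OE. Hnf4g, a nuclear receptor of the proximal tubule, was 4.34 without and 5.62 with AAI in control, and 3.52 without and 6.37 with AAI in hKLF6OE, higher with AAI, and Rora, a retinoid-related orphan receptor, was 6.60 without and 5.05 with AAI in control, and 5.13 without and 4.21 with AAI in hKLF6OE, lower with AAI.

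Several transport and metabolism lists had more lower than higher members with AAI. All genes tested in control also did, at 10.6% higher and 15.7% lower, while in hKLF6OE the shares were 19.6% and 18.1%. Of 24 tested genes of organic anion and cation transport 5 were higher and 9 lower in control, and of 23 in hKLF6OE 6 were higher and 10 lower. Genes of AAI uptake and metabolism were 2 higher and 3 lower of 9 in control and 2 higher and 5 lower of 9 in hKLF6OE. Slc22a6, the transporter OAT1 that brings AAI into the cell, was 0.970 without and 0.623 with AAI in control, and 1.17 without and 0.473 with AAI in hKLF6OE, and Slc22a7, OAT2, was 2.46 without and 1.41 with AAI in control, and 3.23 without and 1.28 with AAI in hKLF6OE. Both were lower with AAI in both genotypes. Of enzymes that reduce AAI, Nqo1 was 0.652 without and 0.980 with AAI in control, and 0.691 without and 1.07 with AAI in hKLF6OE and Por, cytochrome P450 reductase, was 5.23 without and 8.23 with AAI in control, and 4.79 without and 6.90 with AAI in hKLF6OE, both higher with AAI. Abcc2, an export pump for glutathione conjugates, was 13.3 without and 17.5 with AAI in control, and 10.9 without and 23.9 with AAI in hKLF6OE. Of 16 tested gluconeogenesis and fructose genes 2 were higher and 5 lower in control, and of 17 in hKLF6OE 2 were higher and 10 lower, with G6pc, the glucose-6-phosphatase, at 2.41 without and 0.610 with AAI in control, and 1.29 without and 0.591 with AAI in hKLF6OE. Mitochondrial fatty acid oxidation had 1 higher and 4 lower of 16 in control and 1 higher and 7 lower of 15 in hKLF6OE. Branched-chain amino acid catabolism had 1 higher and 5 lower of 19, and 1 higher and 7 lower of 18. With no filter these counts moved by at most 1, except that 11 of 25 fatty acid oxidation genes were then lower in hKLF6OE.

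Peroxisome genes, high in the cluster, were split with AAI, with 8 higher and 9 lower of 37 in control and 7 higher and 11 lower of 37 in hKLF6OE. Over all genes tested 10.6% were higher and 15.7% lower in control, and 19.6% and 18.1% in hKLF6OE, which the counts of the lists here are to be read beside. Ehhadh, the peroxisomal bifunctional enzyme, was 14.02 without and 8.14 with AAI in control, and 5.87 without and 2.74 with AAI in hKLF6OE. Amino acid transport was also split, with 3 higher and 4 lower of 17 in control and 5 higher and 4 lower of 16 in hKLF6OE. Over all 356 Slc and Slco genes in the table, 15 were higher and 29 lower of 107 tested in control, and 33 were higher and 33 lower of 112 in hKLF6OE. Glutathione and NRF2 target genes had 4 higher and 5 lower of 17 in control and 5 higher and 6 lower of 18 in hKLF6OE, with medians of -0.05 and -0.10. In PT-S3-3 the same list had 10 higher and 4 lower of 18 in control and 10 higher and 4 lower of 17 in hKLF6OE, with medians of 0.29 and 0.50, where 23% and 18.6% of all genes tested were higher and lower in control and 29.1% and 21% in hKLF6OE. In PT-S3-1 the list had 6 higher and 2 lower of 18 in control, with a median of 0.03. In hKLF6OE it had 5 higher and 10 lower of 19 there, with a median of -0.21. Over all genes tested in PT-S3-1, 16.6% and 15% were higher and lower in control and 26.6% and 17.8% in hKLF6OE.

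Genes encoded in mitochondrial DNA were lower with AAI in PT-S3-2. Of 11 tested, 10 were lower in control and 11 in hKLF6OE, and none was higher, with medians of -0.46 and -1.13, beside 15.7% and 18.1% of all genes tested that were lower. Their share of all expression was 1.44% and 0.961% in control without and with AAI, and 1.98% and 0.777% in hKLF6OE. It moved the same way in PT-S3-1, at 1.42%, 0.966%, 1.98% and 0.945%, and in PT-S3-3, at 1.32%, 0.839%, 1.86% and 0.627%. In PT-S1-S2-1 it stood at 2.24%, 1.59%, 3.17% and 1.43%. In PT-S1-S2-2 it stood at 1.63%, 1.20%, 2.32% and 1.26%. In all 5 clusters the uninjured hKLF6OE mouse was highest and both mice with AAI lay below both without. The lowest was the hKLF6OE mouse with AAI, except in PT-S1-S2-2. Mitochondrial transcripts are made outside the nucleus, and the part of this share in other differences between the mice was not tested.

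Messages of ribosomal proteins and of nuclear oxidative phosphorylation genes followed the mitochondrial share in one genotype. With no filter, 39 of 82 ribosomal protein genes and 47 of 89 oxidative phosphorylation genes were lower with AAI in hKLF6OE and none was higher, beside 5.00% lower of all genes. In control the counts were 2 higher and 1 lower, and 1 higher and 6 lower. Counts over tested members are not given, since more members pass through the uninjured hKLF6OE mouse, where they are high. The summed level of ribosomal protein genes was 22.03, 22, 36.1 and 19.1. The hKLF6OE mouse without AAI was the one that stood apart, and the other 3 mice lay between 19.1 and 22.03. The share of genes listed at 0 in PT-S3-2 was 20.2%, 21.4%, 23.1% and 22.2%.

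The length of genes differed between higher and lower genes. Among genes tested for AAI in hKLF6OE, 29.6% spanned under 30 kb and 27.3% over 100 kb. Of genes higher with AAI in hKLF6OE, 15.2% were short and 47.1% long, and of lower genes 60.5% were short and 15.7% long. In control the split was smaller, with 27.5% short and 36.0% long among higher genes and 39.8% short and 28.3% long among lower genes, of 28.9% and 27.3% tested. Without AAI, genes higher in hKLF6OE than in control were 68.2% short and 12.8% long, of 30.2% and 26.8% tested. With AAI the same comparison turned round, with 16.5% short and 53.8% long among genes higher in hKLF6OE, of 27.2% and 28.3% tested. The uninjured hKLF6OE mouse is in the comparison without AAI and in that of AAI in hKLF6OE, so these splits are not separate results. Genes can also pass the filter through that mouse alone. In these 2 comparisons 1213 and 1181 short genes were tested, beside 1145 for AAI in control and 1032 between genotypes with AAI. The reads had been counted on a pre-mRNA reference, so intronic reads of long genes are included.

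**Figure D5:**
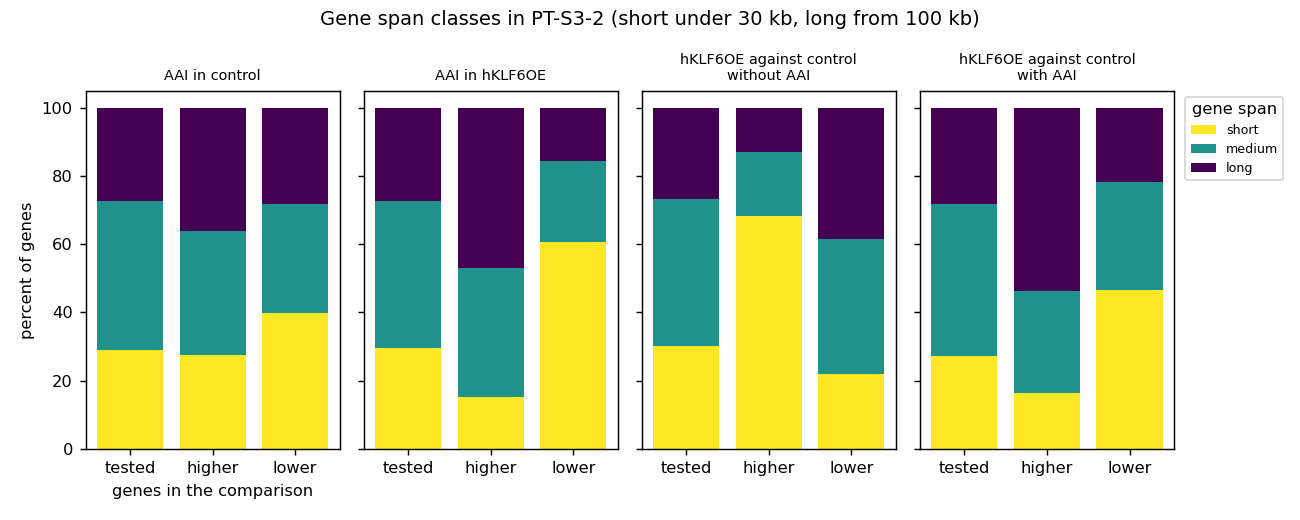
Share of genes in 3 classes of genomic span, in percent, among the genes tested, higher and lower in each comparison in PT-S3-2. Stacked bars start at 0, and long genes are 47.1% of the genes higher with AAI in hKLF6OE and 15.7% of those lower.

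Over genes tested in all 3 S3 clusters, PT-S3-2 differed least between the mice with and without AAI. In control, 25.96% of 3575 such genes were higher or lower in PT-S3-2, 30.7% in PT-S3-1 and 39.9% in PT-S3-3. In hKLF6OE the shares of 3601 genes were 37.5%, 44.3% and 48.7% in the same order. The SD of the log2 differences across genes was 0.228, 0.304 and 0.364 in control, in the same order of clusters, and 0.298, 0.374 and 0.425 in hKLF6OE. Over each cluster's own genes tested, PT-S3-1 had 16.6% higher and 15% lower in control and 26.6% and 17.8% in hKLF6OE. PT-S3-3 had 23% higher and 18.6% lower in control and 29.1% and 21% in hKLF6OE. The share of genes listed at 0 moved with these figures in the other S3 clusters. It was 15.1%, 24.3%, 15.7% and 27.2% in PT-S3-1 and 21.5%, 31.3%, 22.2% and 30.4% in PT-S3-3, while in PT-S3-2 it lay between 20.2% and 23.1%. Its part in the size of the differences was not tested.

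Leading genes of PT-S3-2 appeared in PT-S3-3 in the mice given AAI. In PT-S3-3, Cyp7b1 was 0.746 without and 11.5 with AAI in control, and 1.22 without and 20.1 with AAI in hKLF6OE. Gramd1b was 5.99 without and 30.03 with AAI in control, and 6.25 without and 65.1 with AAI in hKLF6OE, and Fgf1 was 5.03 without and 14.6 with AAI in control, and 6.07 without and 16.4 with AAI in hKLF6OE. Of the 10 genes lowest in PT-S3-2 against the other S3 clusters, 8 were lower with AAI in PT-S3-3 in each genotype, and 2 were higher in control and 1 in hKLF6OE. Over all genes tested in PT-S3-3, 23% were higher and 18.6% lower in control, and 29.1% and 21% in hKLF6OE. Slc34a1 was 56.8 without and 9.94 with AAI in control, and 41.8 without and 4.16 with AAI in hKLF6OE, and Bnc2 was 10.4 without and 4.12 with AAI in control, and 7.19 without and 0.958 with AAI in hKLF6OE. Slc13a1 went the other way, at 14.2 without and 26.5 with AAI in control, and 8.99 without and 18.3 with AAI in hKLF6OE, and Cyp2j13 was higher in control only, at 3.64 without and 5.36 with AAI in control, and 4.59 without and 4.90 with AAI in hKLF6OE. PT-S3-1 did not show this for Cyp7b1, which was 0.322 without and 0.358 with AAI in control, and 0.307 without and 0.435 with AAI in hKLF6OE. Of the 15 leading genes, 10 were higher and 1 lower with AAI in PT-S3-3 in control and 11 higher and 1 lower in hKLF6OE, with medians of 0.64 and 0.71. In PT-S3-1, 3 were higher and 8 lower in each genotype, and in PT-S3-2 itself 7 were higher and 3 lower in control and 8 higher and 3 lower in hKLF6OE. Over all genes tested in PT-S3-1, 16.6% were higher and 15% lower in control, and 26.6% and 17.8% in hKLF6OE. In PT-S3-2 the shares were 10.6% and 15.7% in control, and 19.6% and 18.1% in hKLF6OE. Both sets of genes were picked by differences in these same 4 mice, those given AAI included. Their counts therefore describe these columns and test nothing. A shift of nuclei from one cluster to another and a change within nuclei cannot be told apart in these means.

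Between the 2 uninjured mice, 338 of 4047 genes stood higher in hKLF6OE (8.35%) and 548 lower (13.5%). The excess of lower genes turned round with the scaling, at 470 higher and 339 lower when centred on the median and 522 and 478 without the 20 most abundant genes. Both genotype comparisons share their mice with the AAI comparisons. The mitochondrial share given above was also higher in the uninjured hKLF6OE mouse, and its part in this comparison was not tested. Tnfrsf21, death receptor 6, stood at 2.68, 6.41, 6.20 and 6.29, so the uninjured control was the low mouse. Ttr, transthyretin, stood at 0.216, 0.178, 1.40 and 0.0130, and the uninjured hKLF6OE mouse was the high one. Il34, a cytokine that acts through the CSF1 receptor, stood at 1.91, 1.13, 0.669 and 1.62, and Rgl1 at 8.22, 5.44, 4.302 and 3.73, both lower in hKLF6OE without AAI. Gclc, the catalytic subunit of glutamate-cysteine ligase, stood at 39.5, 17.4, 15.2 and 14.8, and the uninjured control was the high mouse. Isoc2a stood at 1.61, 1.73, 0.327 and 1.62, and the uninjured hKLF6OE mouse was the low one. Aff3 stood at 0.0244, 0.876, 1.12 and 1.30, lowest in the uninjured control.

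With AAI, 321 of 3824 genes were higher in hKLF6OE than in control (8.39%) and 307 lower (8.03%), and 303 and 324 when centred on the median. Dscaml1, a cell adhesion protein, stood at 0.0248, 0.0704, 0.0244 and 1.59, and only the hKLF6OE mouse with AAI exceeded the minimum of 0.5. Itgb6, an integrin of injured epithelium that activates TGF-beta, stood at 3.61, 2.85, 2.79 and 7.40. Mgmt, which removes alkyl groups from guanine in DNA, stood at 0.435, 1.46, 0.312 and 3.15, higher with AAI in both genotypes. Mylk, myosin light chain kinase, and the transcript Gm26917 were also higher in hKLF6OE with AAI, by 0.88 and 0.98. Lower genes were enzymes and a transporter. Ehhadh stood at 8.14 in control and 2.74 in hKLF6OE with AAI, Fmo2, a flavin monooxygenase, at 5.55, 6.19, 4.93 and 2.26 in the 4 mice, and Slc22a19 at 9.04, 7.12, 6.09 and 2.97. Alas1, the first enzyme of heme synthesis (-0.98), and Eci3, a peroxisomal enoyl-CoA isomerase (-0.90), followed.

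Some genes differed in how the mice with and without AAI compared in the 2 genotypes, which was not tested. Lrmda stood at 18.1, 19.7, 11.05 and 32.5, nearly level in control and higher with AAI in hKLF6OE. Slc8a1, a sodium calcium exchanger, stood at 1.16, 0.572, 0.642 and 1.54, lower with AAI in control and higher in hKLF6OE. Bcat1 stood at 1.63, 3.43, 4.80 and 2.90, higher with AAI in control and lower in hKLF6OE. Snhg11, a non-coding RNA, stood at 2.99, 4.85, 5.29 and 2.73 and Nt5e, the enzyme CD73 that makes adenosine, at 2.60, 2.35, 6.15 and 1.89, and in both the uninjured hKLF6OE mouse was the highest. Mogat1, which makes diacylglycerol, stood at 0.775, 4.61, 2.24 and 3.74, higher with AAI in both genotypes and from a higher start in hKLF6OE.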

How the data were processed

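Single-nucleus RNA sequencing of kidney cortex from 4 mice was used, 1 mouse per condition. The deposited values are a signal that the authors made by scaling each nucleus and averaging over the nuclei of 1 cluster in 1 mouse, on a linear scale. The function was not given in the sources used here, so the unit was inferred from the table, whose 92 columns hold fractional values adding up to 10000 each. The submitters' processing notes name Cell Ranger, Seurat and mm10, and reads were counted on a pre-mRNA reference. Nuclei had been filtered by gene number and mitochondrial share, and removal of doublets was not described for these data. Cluster names follow the order of the sheets of the study's marker table. Depth and nuclei per column are unknown, so the precision of a value could not be estimated.

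Of 19632 gene rows, 23 with date-like names were left out. Differences were taken on log2(value + 1) among genes whose larger value was at least 0.5, with a threshold of 0.2. A fold on this scale understates the change of low genes. PT-S3-2 was compared with the unweighted mean of the other 22 clusters and with the mean of PT-S3-1 and PT-S3-3 in each mouse, and between mice within the cluster. No test was made. The members and the gene lists were chosen with earlier results of these data known, and the list of sterol genes was added after their values were seen. Some genes are not reported here.

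Genes were named by rule. These were the 2 markers, the 15 genes furthest above the other clusters by their smallest difference over the mice, the 10 highest and lowest against the other S3 clusters, and the 10 highest and lowest with AAI by the smaller difference of the 2 genotypes. The 5 highest and lowest between genotypes, the 5 with the largest difference between the AAI differences in each direction, list members, Klf6, Polr2a and Pcf11 were also named. Gene span, held by 19296 rows, was the genomic length in the annotation of GRCm38. Alternatives were pseudocounts, filters and thresholds, centring on the median, leaving out the 20 most abundant genes, the median of the other clusters, PT-S3-3 alone and leaving out 1 mouse. The counting of calls was tested on simulated data. Scripts ran in Python 3.11.15 with pandas 2.3.3, numpy 2.4.6 and, for plots, matplotlib 3.10.9. Chromatin, cell line and tissue staining data were not analysed here.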

Additional observations from a re-analysis of the deposited data

Results flagged for a closer look

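Several genes of PT-S3-2 were higher with AAI in one genotype and lower in the other, by at least 0.2 on the log2 scale each way, and are listed with the difference in control, the difference in hKLF6OE and the second minus the first. None of these differences was tested, since each rests on 1 mouse per condition. Higher in control and lower in hKLF6OE were Napsa (0.50, -0.44 and -0.94), Bcat1 (0.75, -0.57 and -1.32), Alas1 (0.32, -0.39 and -0.71), Snhg11 (0.55, -0.75 and -1.31), Gm13936 (0.24, -1.02 and -1.26) and Umod (0.32, -0.29 and -0.61). Umod is a marker gene of the loop of Henle, and the part of RNA from other cells in its values was not tested. Lower in control and higher in hKLF6OE were Il34 (-0.45, 0.65 and 1.11), Itgb6 (-0.26, 1.15 and 1.41), Mylk (-0.51, 0.52 and 1.03) and Slc8a1 (-0.46, 0.63 and 1.08).

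Other genes moved one way with AAI in PT-S3-2 in both genotypes and the opposite way in another S3 cluster, and these differences were not tested either. PT-S3-3 was compared first. There the mean AAI difference of Fgf1 was 1.34, beside -0.25 in PT-S3-2, a gap of 1.58, and that of Slc22a19 was 1.10 beside -0.57, a gap of 1.67. Against PT-S3-1, Slc6a6, the taurine transporter, was at 0.61 in PT-S3-2 and -0.26 in PT-S3-1, a gap of -0.87. Bmp6, a bone morphogenetic protein, was at -0.33 and 0.33, a gap of 0.66.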

How the results depend on the processing

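Counts are given as higher and lower genes. With a pseudocount of 0.1 they were 329 and 408 against the other S3 clusters, 824 and 1172 with AAI in control, 1309 and 1122 with AAI in hKLF6OE, 695 and 1178 between genotypes without AAI, 787 and 794 with AAI, and 426 and 518 with AAI in both genotypes. With a minimum of 2, in place of 0.5, they were 322 and 249 against the other clusters, then, in the same order, 110 and 111, 222 and 227, 400 and 186, 115 and 244, 171 and 127, and 144 and 101. With a threshold of 0.5, in place of 0.2, they were 316 and 464 against the other clusters, then 82 and 81, 84 and 90, 144 and 161, 46 and 27, 27 and 30, and 42 and 44. With a threshold of 1 they were 103 and 141, then 16 and 13, 9 and 10, 20 and 26, 2 and 2, 2 and 3, and 3 and 4. Centring on the median gave 470 and 339 between genotypes without AAI and 685 and 802 with AAI in hKLF6OE, and leaving out the 20 most abundant genes gave 522 and 478, and 752 and 1017, so the balance of both comparisons turned round. Against the median of the other clusters 492 genes were lower. Against PT-S3-3 alone 136 were higher and 119 lower.

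Gene lists whose median lay beyond the threshold with AAI numbered 5 in control and 9 in hKLF6OE. They became 11 in control with a pseudocount of 0.1, 2 in control with a minimum of 2, and 1 in control and 2 in hKLF6OE with no filter. Leaving out 1 mouse in turn gave 711 to 716 higher and 986 to 1072 lower against the other clusters, and 245 to 271 higher and 283 to 302 lower against the other S3 clusters. A call has to hold in every mouse used, so leaving 1 out could not lower these counts. Of the values of single genes under an alternative, 385 were within the limit set and 289 beyond it, and no called value turned its sign. The cause of these changes was not tested. Depth per column is unknown, so low genes are the least certain. No paired analysis was possible because each condition has 1 mouse and the groups share fewer than 2 replicate numbers. A fit with genotype and AAI as additive terms, which would leave 1 residual degree of freedom, was not made.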
